A study of Mus musculus with 3 samples.

Results

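The Ms4a genes encode small multi-pass membrane proteins that sit beside immune receptors and, in several cases, tune their signals. The 9 genes described here were Ms4a1, Ms4a2, Ms4a4a, Ms4a4b, Ms4a4c, Ms4a6b, Ms4a6c, Ms4a6d and Ms4a7, taken by symbol from the 32285 genes of the deposited matrices. They were followed through the leukocytes of the mouse aorta, with the class and subset of cells that held each transcript, and with the levels in each of 3 libraries.

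Each library held live, nucleated CD45+ cells sorted from whole aortas, adventitia included, of ApoE-/- mice on a C57BL/6J background. ApoE-/- mice lack apolipoprotein E and form arterial plaques. The Ctrl library came from animals labelled as the control, with no more said of their diet or water, the library labelled HHcy from animals given 4 weeks of drinking water containing 1.8 g/L homocysteine, and the WD library from animals kept 4 weeks on a western diet. Single-cell 3′ libraries were made with Chromium chemistry, and each read was assigned to a cell and a molecule by its unique molecular identifier (UMI). There was 1 library per group, and how many mice were pooled into it is not given in the sources used here. No test between groups was therefore possible, and every interval below covers counting error only. Values for 3 libraries are always given in the order Ctrl, library labelled HHcy, WD.

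Family members mark different leukocytes. Ms4a1 encodes CD20, the B-cell surface protein bound by therapeutic antibodies. Ms4a2 encodes the β chain of the high-affinity IgE receptor of mast cells and basophils. Ms4a4b is known from T cells, where its product modulates activation, and Ms4a4a, Ms4a6d and Ms4a7 are known from monocytes and macrophages. Ms4a4c, Ms4a6b and Ms4a6c belong to the part of the family that expanded in rodents, and less is known of their products.

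The matrices held 7512, 9753 and 8557 cell barcodes with 66789257, 105180370 and 93164076 UMIs. Barcodes with markers of more than 1 lineage were left out as doublets and made up 11.2%, 21.9% and 20.9% of those that passed the filters, which left 5361, 6373 and 5309 cells. Cells were grouped into 12 classes from marker genes, with no Ms4a gene used for clustering or naming, so every class name below means a cell that looks like that type by its markers. Between 20 and 24 called barcodes were shared by each pair of libraries. Fibroblast-like and endothelial-like cells, which a CD45+ sort should not hold, numbered 44, 132 and 218. Apoe, the gene deleted in these mice, stood at 16.3, 374 and 19.3 UMIs per 1000000 UMIs (CPM) over all barcodes and at 29.0, 1171 and 26.3 CPM in macrophages and monocytes. The library labelled HHcy therefore went against its genotype label, and each difference from Ctrl given for it below carries that limit. The named classes had a median of 7465, 6449 and 6667.5 UMIs per B cell, 7477, 8401 and 9255 per macrophage or monocyte, 4018, 5973 and 4828.5 per T cell and 4336, 3415.5 and 6285 per mast cell.

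All 9 genes lie within 374 kb of chromosome 19, in the order Ms4a1 (chr19:11249675-11266241, minus strand), Ms4a7 (chr19:11321039-11336146, minus), Ms4a4a (chr19:11375523-11392790, plus), Ms4a4c (chr19:11404770-11427246, plus), Ms4a4b (chr19:11443553-11467055, plus), Ms4a6c (chr19:11469366-11482192, plus), Ms4a6b (chr19:11516512-11531256, plus), Ms4a6d (chr19:11586604-11604849, minus) and Ms4a2 (chr19:11615523-11623719, minus). Positions are those of GRCm38, and all 9 genes are annotated as protein-coding. Some members are recent copies of each other, and 3′ reads can be shared between copies. In the last 500 bases of the annotated transcripts, 3.53% of the 50-base words of Ms4a4b also occurred in Ms4a4c, and 10.5% of those of Ms4a4c in Ms4a4b. The shares were 3.95% for Ms4a6b, whose words occurred in Ms4a6c or Ms4a6d, and 6.1% for Ms4a6c, whose words occurred in Ms4a6b. The other 5 members shared none, so counts of Ms4a4b, Ms4a4c, Ms4a6b and Ms4a6c are uncertain to the extent of those words.

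The same pairs were alike in their promoters, although the pairs differed in the cells that held them, as described further on. RefSeq start-site windows were at hand for 7 of the 9 members (GRCm38.p6), and not for Ms4a1 and Ms4a6d. Aligned locally, the windows of Ms4a6b and Ms4a6c were 83.4% identical over 181 columns, and those of Ms4a4b and Ms4a4c 73.3% over 247 columns. Stretches of 250 bases from these 4 windows are printed below because Ms4a4b was a T-cell and NK-cell gene here, while its neighbour Ms4a4c was held by monocytes, dendritic cells and B cells. Ms4a6b and Ms4a6c were both held by monocytes, and T cells held Ms4a6b at a level like that of the macrophage and monocyte class. Capitals mark runs of at least 10 bases that the printed stretch shares with its partner. The stretches are chr19:11443308-11443557, chr19:11407411-11407660, chr19:11518309-11518558 and chr19:11469118-11469367, all on the plus strand. The RefSeq start sites of Ms4a4c and Ms4a6b lie inside the gene spans given above, not at their left ends.
Ms4a4b: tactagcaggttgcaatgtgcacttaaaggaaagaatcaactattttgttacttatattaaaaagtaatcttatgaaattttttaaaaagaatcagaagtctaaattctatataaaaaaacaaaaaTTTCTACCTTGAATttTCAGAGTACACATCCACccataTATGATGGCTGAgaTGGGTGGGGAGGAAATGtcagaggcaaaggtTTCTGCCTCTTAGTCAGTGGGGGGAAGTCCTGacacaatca
Ms4a4c: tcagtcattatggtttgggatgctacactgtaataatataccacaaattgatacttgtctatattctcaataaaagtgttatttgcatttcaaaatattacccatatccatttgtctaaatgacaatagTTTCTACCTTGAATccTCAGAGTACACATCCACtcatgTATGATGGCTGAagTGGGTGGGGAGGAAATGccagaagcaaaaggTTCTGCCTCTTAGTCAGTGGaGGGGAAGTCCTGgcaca
Ms4a6b: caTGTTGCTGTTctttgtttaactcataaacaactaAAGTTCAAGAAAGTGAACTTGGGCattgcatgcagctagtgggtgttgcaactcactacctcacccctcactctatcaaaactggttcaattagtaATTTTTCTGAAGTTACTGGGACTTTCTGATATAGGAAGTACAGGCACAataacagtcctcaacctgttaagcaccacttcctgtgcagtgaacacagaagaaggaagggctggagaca
Ms4a6c: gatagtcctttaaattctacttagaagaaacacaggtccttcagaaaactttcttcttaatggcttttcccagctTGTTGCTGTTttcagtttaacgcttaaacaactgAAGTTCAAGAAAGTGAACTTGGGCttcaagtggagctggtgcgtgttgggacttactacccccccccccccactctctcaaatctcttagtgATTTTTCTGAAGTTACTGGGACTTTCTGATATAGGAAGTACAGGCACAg
The Ms4a4b and Ms4a4c stretches shared 92 bases in 6 such runs, close to the start site, and the Ms4a6b and Ms4a6c stretches 82 bases in 3 runs. In the 250 bases before the start, read on both strands, the letters GAGGAA occurred in Ms4a4b and Ms4a4c among the 7 members, and in 23.3% of 32851 RefSeq windows. The letters GGAAGT occurred in Ms4a4b, Ms4a4c, Ms4a6b, Ms4a6c and Ms4a7, and in 19.7% of windows. These matches describe the letters of the windows and nothing further.

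Ms4a1 was a B-cell transcript in all 3 libraries. In B cells it stood at 1085 (95% interval 1070.3 to 1099), 1012 (95% interval 1000.5 to 1023) and 1222 (95% interval 1201 to 1243) CPM. Of its UMIs among the cells used, 98.2, 98.6 and 97.5% lay in B cells. The next class, plasma cells, held 102, 58.5 and 54.8 CPM, and the libraries' ranges in these classes did not overlap. With every cell thinned to 1000 UMIs so that depth was equal, 61.6% (95% interval 59.6 to 63.6), 59.8% (95% interval 58.3 to 61.4) and 63.5% (95% interval 60.8 to 66.1) of B cells held at least 1 Ms4a1 UMI, against 1.25, 0.925 and 0.706% of macrophages and monocytes, which should lack CD20. Without thinning the share of B cells was 95.9, 96.8 and 95.7%. Levels outside B cells were low, with 8.33, 10.5 and 5.79 CPM in macrophages and monocytes, and the part of free RNA in them was not tested.

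Within B cells, Ms4a1 set a single subset apart. The subset led by Sox4, Fam129c, Slco4a1 and Vpreb3 (263, 187 and 223 cells) held 2765 (95% interval 2678 to 2853), 2806 (95% interval 2705 to 2910.5) and 2662 (95% interval 2572 to 2754) CPM. That was 2.47 times the median of the next subset, and no library of any other B-cell subset reached it. Vpreb3 and Sox4 are background markers of young B-lineage cells, but the subset was not named because it did not meet the marker rule. The B-cell receptor chain genes stood at 2991, 3346 and 3169 CPM (Cd79a) and 2108, 2306 and 2372 CPM (Cd79b) in this subset, against 1687, 2036 and 1931 and 915, 880.1 and 1142 CPM in all B cells. Cd37, a tetraspanin gene of B cells, stood at 884, 1018 and 901 CPM there and 587, 646 and 637 CPM in all B cells. Among the large subsets, Ms4a1 was at like levels in those led by S100a6 and Pxdc1 and lower in that led by Satb1. It held 1011, 1118 and 1138 CPM in the B1-cell-like subset led by S100a6, 1039, 1085 and 1085 CPM in the follicular-like subset led by Pxdc1, and 803, 820.1 and 737 CPM in the follicular-like subset led by Satb1.

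Ms4a2 was a mast-cell transcript. Mast cells were few (35, 24 and 11 cells) and held 321 (95% interval 248 to 408), 356 (95% interval 252 to 488) and 407 (95% interval 283 to 566) CPM, with 66, 38 and 35 UMIs. The intervals of the 3 libraries overlapped. At 1000 UMIs per cell, 22.9% (95% interval 10.4 to 40.1), 25% (95% interval 9.77 to 46.7) and 36.4% (95% interval 10.9 to 69.2) of mast cells held a Ms4a2 UMI, against 0 of 2291, 0 of 3804 and 1 of 1273 B cells, which allows shares of up to 0.131% and 0.0789% in the libraries at 0. The genes for the other chains of the IgE receptor were also present in mast cells. Fcer1a, the IgE-binding chain, stood at 1876, 3146 and 3697 CPM in mast cells, and Fcer1g, the signalling chain shared with other Fc receptors, at 3082, 3446 and 2476 CPM there and at 2211, 2363 and 2379 CPM in macrophages and monocytes. The mast-cell class also held 792, 1498 and 1093 CPM of the summed B-cell marker list and 3476, 1742 and 2697 CPM of the macrophage list. Ms4a1 at 53.5, 46.8 and 128 CPM in mast cells stands beside those values, and their part in it was not tested.

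Ms4a4b was held by NK cells and T cells. NK cells (19, 12 and 14 cells) stood at 648 (95% interval 518 to 801), 765 (95% interval 600.3 to 959.8) and 731 (95% interval 566 to 928) CPM and T cells (145, 214 and 150 cells) at 563 (95% interval 512 to 617), 659 (95% interval 620.3 to 699) and 665 (95% interval 614 to 719) CPM. The ranges of these 2 classes overlapped, and T cells were 47.2 times the median of B cells, the next class, with no overlap. At 1000 UMIs per cell, 33.1% (95% interval 25.3 to 41.7), 39.5% (95% interval 32.9 to 46.5) and 45% (95% interval 36.8 to 53.3) of T cells held a Ms4a4b UMI, against 1.13, 2.39 and 2.12% of B cells. The T-cell subset led by Ccl5, Ccl4, Itga1 and Klre1, genes of cytotoxic lymphocytes, stood highest at 944, 924 and 1029 CPM, and no other T-cell subset reached it in any library. The regulatory T-cell-like subset held 374, 713 and 880.2 CPM, and the γδ or IL-17 T-cell-like subset was the lowest of those ordered at 69.3, 162 and 97.1 CPM. These T-cell subsets held between 16 and 58 cells per library. Tnfrsf18 encodes GITR, a co-stimulatory receptor with which the Ms4a4b product associates. It was distributed otherwise, at 241, 311 and 419 CPM in the regulatory-like subset, 34.4, 51.7 and 44 CPM in the subset led by Ccl5 and 172, 285 and 222 CPM in group 2 innate lymphoid cells.

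Ms4a4c, the close copy of Ms4a4b, was a gene of monocytes and of a kind of dendritic cell. By class it stood at 159, 254 and 232 CPM in conventional dendritic cells and 219, 354 and 209 CPM in macrophages and monocytes, with overlapping ranges. Classical monocytes held 638 (95% interval 606 to 669.9), 946 (95% interval 911 to 982) and 835 (95% interval 801 to 870.4) CPM, above every other subset in all 3 libraries. Dendritic cells marked by Cd209a followed at 341, 474 and 400.0 CPM, and non-classical monocytes stood at 299.7, 307 and 307 CPM. The other dendritic cells held far less, with 15.1, 49.7 and 33.7 CPM in the Xcr1 subset. Resident-like macrophages, marked by Lyve1 and Folr2, held 24, 27.3 and 59.1 CPM, and the macrophages led by Prg4 and Alox15 40.1, 43.8 and 37.7 CPM. Ms4a4c was thus higher in both monocyte subsets than in the resident-like and Prg4-led macrophages, as the plot of myeloid subsets shows. The macrophages led by Spp1, given further on, held more than these macrophages. In the library labelled HHcy they also held more than non-classical monocytes.

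B cells also held Ms4a4c, at levels that differed between B-cell subsets. The follicular-like subset led by Pxdc1 stood at 218, 224 and 234 CPM and that led by Satb1 at 136, 150.0 and 156 CPM. The B1-cell-like subset led by S100a6 held 26.5, 40.7 and 35.2 CPM and the subset led by Sox4 46.8, 68.8 and 81 CPM. The ranges of the follicular-like subsets lay above those of both others, and the Pxdc1-led subset lay above every other B-cell subset. The Satb1-led subset did not stand apart. The other B1-cell-like subset, led by Igha, held 100.2, 93.4 and 134 CPM, the subset led by Gm26917 and Retnla 140.0, 153 and 133 CPM and that led by Mettl1 105, 179 and 118 CPM. Ms4a6c was distributed the other way in the same cells, at 53.3, 46.2 and 77.1 CPM in the B1-cell-like subset, 10.6, 12.8 and 11.5 CPM in the Satb1-led subset and 7.55, 15.6 and 32.7 CPM in the Pxdc1-led subset. Ms4a4b stood at 22.7, 28.1 and 31.8 and 24.4, 30.1 and 25.7 CPM in the Satb1-led and Pxdc1-led subsets.

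**Figure D1:**
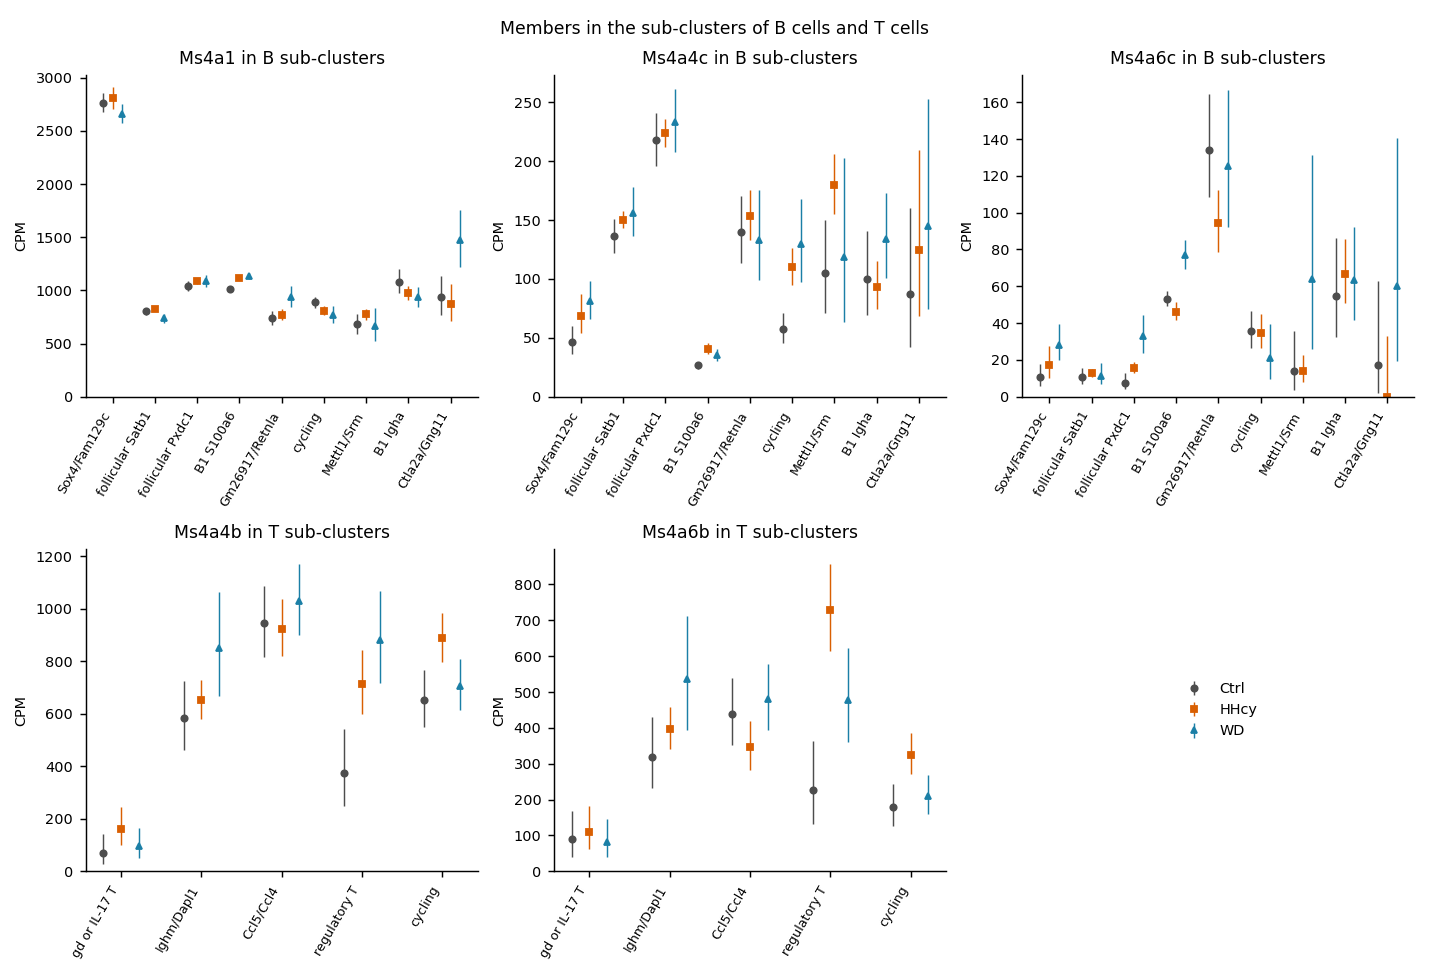
Levels of family members in B-cell subsets (Ms4a1, Ms4a4c, Ms4a6c) and T-cell subsets (Ms4a4b, Ms4a6b), in CPM, with each library as a point and bars for exact Poisson 95% intervals. Ms4a1 is highest in the subset led by Sox4, Ms4a4c in the follicular-like subset led by Pxdc1 and Ms4a4b in the T-cell subset led by Ccl5, each in all 3 libraries.

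Ms4a6b was shared by T cells and the monocyte lineage. T cells stood at 249.6, 349.6 and 303 CPM and macrophages and monocytes at 238, 400.3 and 265 CPM, with overlapping ranges. At 1000 UMIs per cell, a Ms4a6b UMI was found in 18.4, 23.3 and 29.5% of T cells, 20.5, 28.8 and 21.5% of macrophages and monocytes and 2.53, 3.65 and 3.06% of B cells. Among T cells the Ccl5-led subset held 437, 346 and 479 CPM, the subset led by Ighm, Dapl1 and Ccr7 320.0, 397 and 536 CPM and the regulatory-like subset 227, 728 and 479 CPM, and these ranges overlapped. In the myeloid cells Ms4a6b stood at 413, 705 and 527 CPM in classical monocytes, 376, 453 and 421 CPM in resident-like macrophages and 259.8, 331 and 330.2 CPM in non-classical monocytes. Unlike Ms4a4c, it was therefore at like levels in resident-like macrophages and monocytes. It was lowest in the macrophages led by Prg4 and Alox15, at 34.5, 45.9 and 35 CPM.

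Ms4a6c was a transcript of macrophages and monocytes, at 649 (95% interval 637 to 661), 806 (95% interval 790.1 to 823) and 637 (95% interval 628 to 646) CPM. Conventional dendritic cells followed at 262, 419 and 356 CPM, with no overlap of the ranges. At 1000 UMIs per cell, 43.7% (95% interval 41.5 to 46), 43.3% (95% interval 40.5 to 46.2) and 43.6% (95% interval 41.7 to 45.5) of macrophages and monocytes held a UMI, against 2.58, 1.97 and 3.69% of B cells. At 1000 UMIs the shares of the 3 libraries thus differed by less than their counting intervals. This did not hold at 2000 UMIs per cell, where the shares were 62.6, 68.0 and 62.7%. The CPM of the library labelled HHcy also lay above the intervals of the others. Classical monocytes (1019, 1361 and 1183 CPM), non-classical monocytes (938, 977 and 1118 CPM) and the unnamed cells of the class led by Cd300e and Hspa1a (731, 969.7 and 925 CPM) stood at the top with overlapping ranges. Resident-like macrophages held 604, 593 and 659.9 CPM, Cd209a dendritic cells 487, 753 and 569 CPM and the macrophages led by Cd72 263, 305 and 415 CPM. The few plasmacytoid dendritic cells (6, 40 and 9 cells) stood at 533, 308 and 402 CPM.

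Ms4a6d was held by every macrophage and monocyte subset and was highest in the macrophages led by Spp1 in each library. Macrophages and monocytes stood at 170.2 (95% interval 164 to 176), 263 (95% interval 254 to 272) and 257 (95% interval 251 to 263) CPM, and conventional dendritic cells at 60.9, 51.6 and 80.4 CPM. At 1000 UMIs per cell the share of macrophages and monocytes with a UMI was 14.9% (95% interval 13.4 to 16.6), 21.2% (95% interval 18.9 to 23.6) and 19.9% (95% interval 18.4 to 21.4), against 0.218, 0.526 and 0.471% of B cells. The macrophages led by Spp1, Gpnmb and Fabp5, genes of lipid-laden macrophages, stood at 299 (95% interval 278 to 323), 485 (95% interval 443 to 530.2) and 364 (95% interval 347 to 380.3) CPM. Classical monocytes held 171, 369.7 and 271 CPM, resident-like macrophages 179, 267 and 301 CPM and the Cd72-led macrophages 209, 239 and 251 CPM, each below the Spp1-led macrophages of the same library. Over the 3 libraries the range of the Spp1-led macrophages overlapped those of classical monocytes and resident-like macrophages. The Prg4-led macrophages were lowest at 64.6, 102 and 108 CPM. Vsig4 encodes a complement receptor with which the Ms4a6d product associates, and was distributed otherwise. Vsig4 stood at 205, 452 and 205 CPM in the Prg4-led macrophages, 38.9, 51.2 and 37.6 CPM in resident-like macrophages and 2.17, 1.0 and 1.15 CPM in the Spp1-led macrophages.

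Ms4a7 was held by macrophages and was far lower in monocytes. The class as a whole stood at 269.8 (95% interval 262 to 278), 258 (95% interval 249 to 268) and 442 (95% interval 434 to 449) CPM and no other ordered class overlapped it. The macrophages led by Mmp13, H2-M2 and Mmp12 (46, 51 and 23 cells) held 1031 (95% interval 945 to 1122), 1332 (95% interval 1230.4 to 1440.5) and 866 (95% interval 760.3 to 982) CPM, and those led by Cd72 and Nes (211, 92 and 680 cells) held 938 (95% interval 900.2 to 977), 1107 (95% interval 1041 to 1176) and 1002 (95% interval 979.7 to 1024) CPM. These ranges overlapped, and both lay above resident-like macrophages, at 315, 352 and 427 CPM, and the Spp1-led macrophages, at 253, 269.5 and 287 CPM. Classical monocytes held 15, 14.5 and 35.1 CPM, non-classical monocytes 11.6, 15.2 and 33.3 CPM and Cd209a dendritic cells 5.37, 8.32 and 21.3 CPM. Ms4a7 and Ms4a4c thus differed in opposite ways between classical monocytes and the Cd72-led macrophages, which held 59.9, 73.8 and 110.1 CPM of Ms4a4c, far below classical monocytes. This did not hold for every subset, since the Prg4-led macrophages were low in both genes and the Spp1-led macrophages held both. At 1000 UMIs per cell, 15.1% (95% interval 13.5 to 16.8), 19.3% (95% interval 17.1 to 21.6) and 25.7% (95% interval 24.1 to 27.4) of macrophages and monocytes held a Ms4a7 UMI, against 0.218, 0.499 and 0.628% of B cells.

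**Figure D2:**
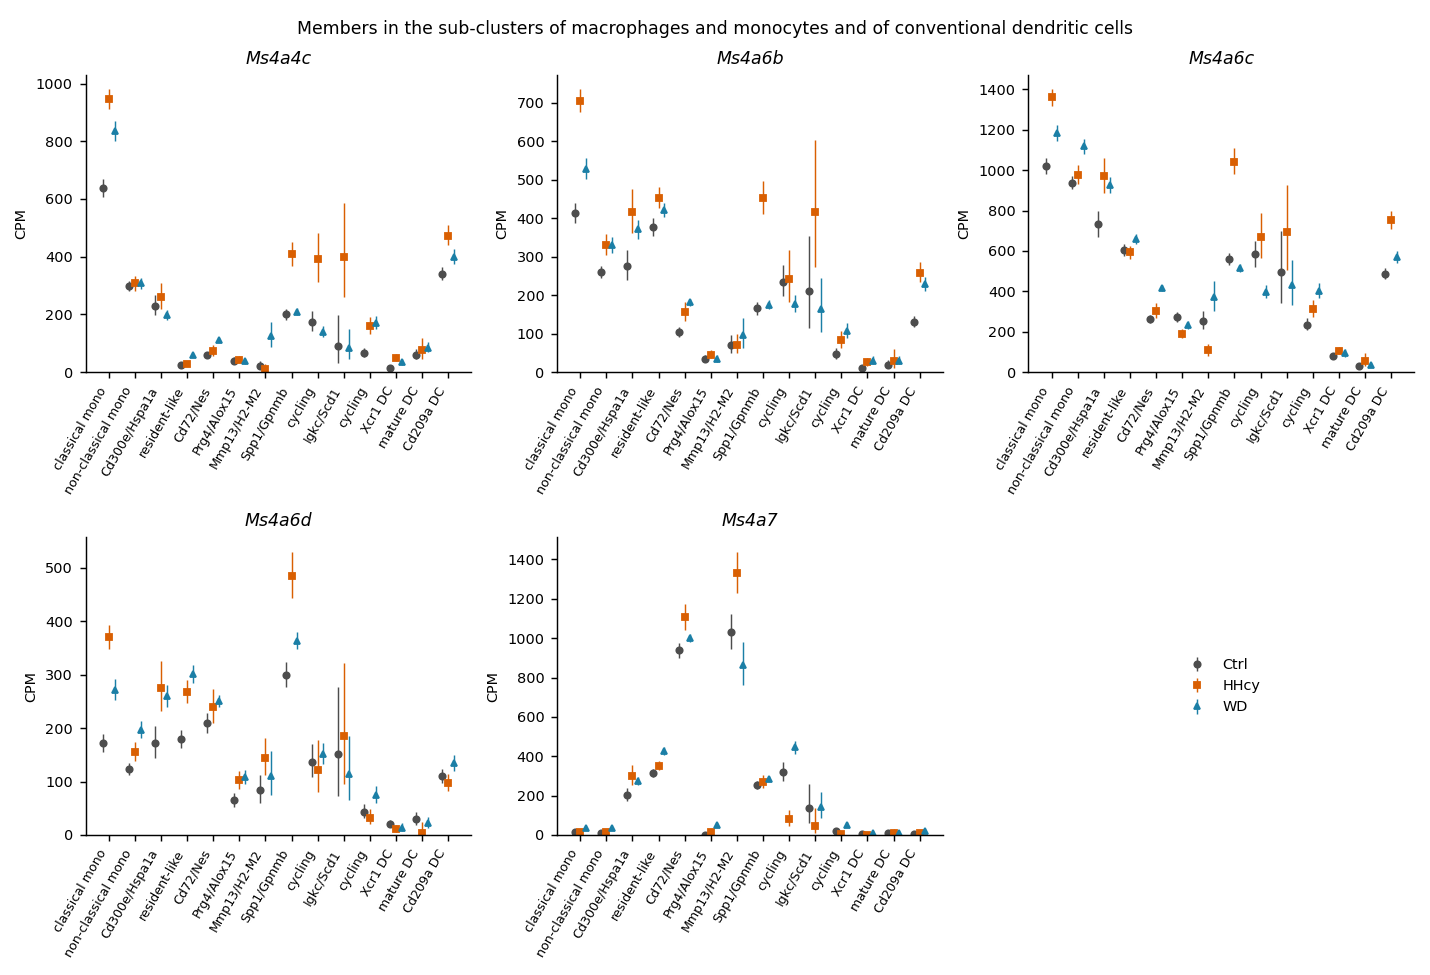
Levels of Ms4a4c, Ms4a6b, Ms4a6c, Ms4a6d and Ms4a7 in the macrophage, monocyte and dendritic cell subsets, in CPM, with each library as a point and bars for exact Poisson 95% intervals. Ms4a4c peaks in classical monocytes and Ms4a7 in the macrophages led by Mmp13 and by Cd72, in all 3 libraries.

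Ms4a4a was at a low level. Macrophages and monocytes held 119, 101 and 150 Ms4a4a UMIs, or 6.88 (95% interval 5.7 to 8.23), 8.59 (95% interval 7.0 to 10.4) and 4.96 (95% interval 4.2 to 5.82) CPM, and these were 89.5, 89.4 and 90.4% of its UMIs among the cells used. By median over the libraries, the unnamed cells led by Cd300e and Hspa1a stood highest. They did not with doublets kept, at clustering resolution 2, at a looser mitochondrial limit or with cells named singly. Resident-like macrophages stood at 11.8, 14.9 and 8.73 CPM and classical monocytes at 10.2, 11.4 and 9.61 CPM. The ranges of these 2 overlapped, so the subsets could not be ordered at this depth. Dectin-1, the receptor with which the Ms4a4a product associates, was not analysed here.

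Group 2 innate lymphoid cells (31, 44 and 55 cells) also held myeloid members, with 176, 176 and 375 CPM of Ms4a6c and 78.4, 16.8 and 118 CPM of Ms4a7. The macrophage list summed to 6588, 4864 and 10949 CPM in that class and was, like both genes, highest in WD. Its part in these values was not tested.

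**Figure D3:**
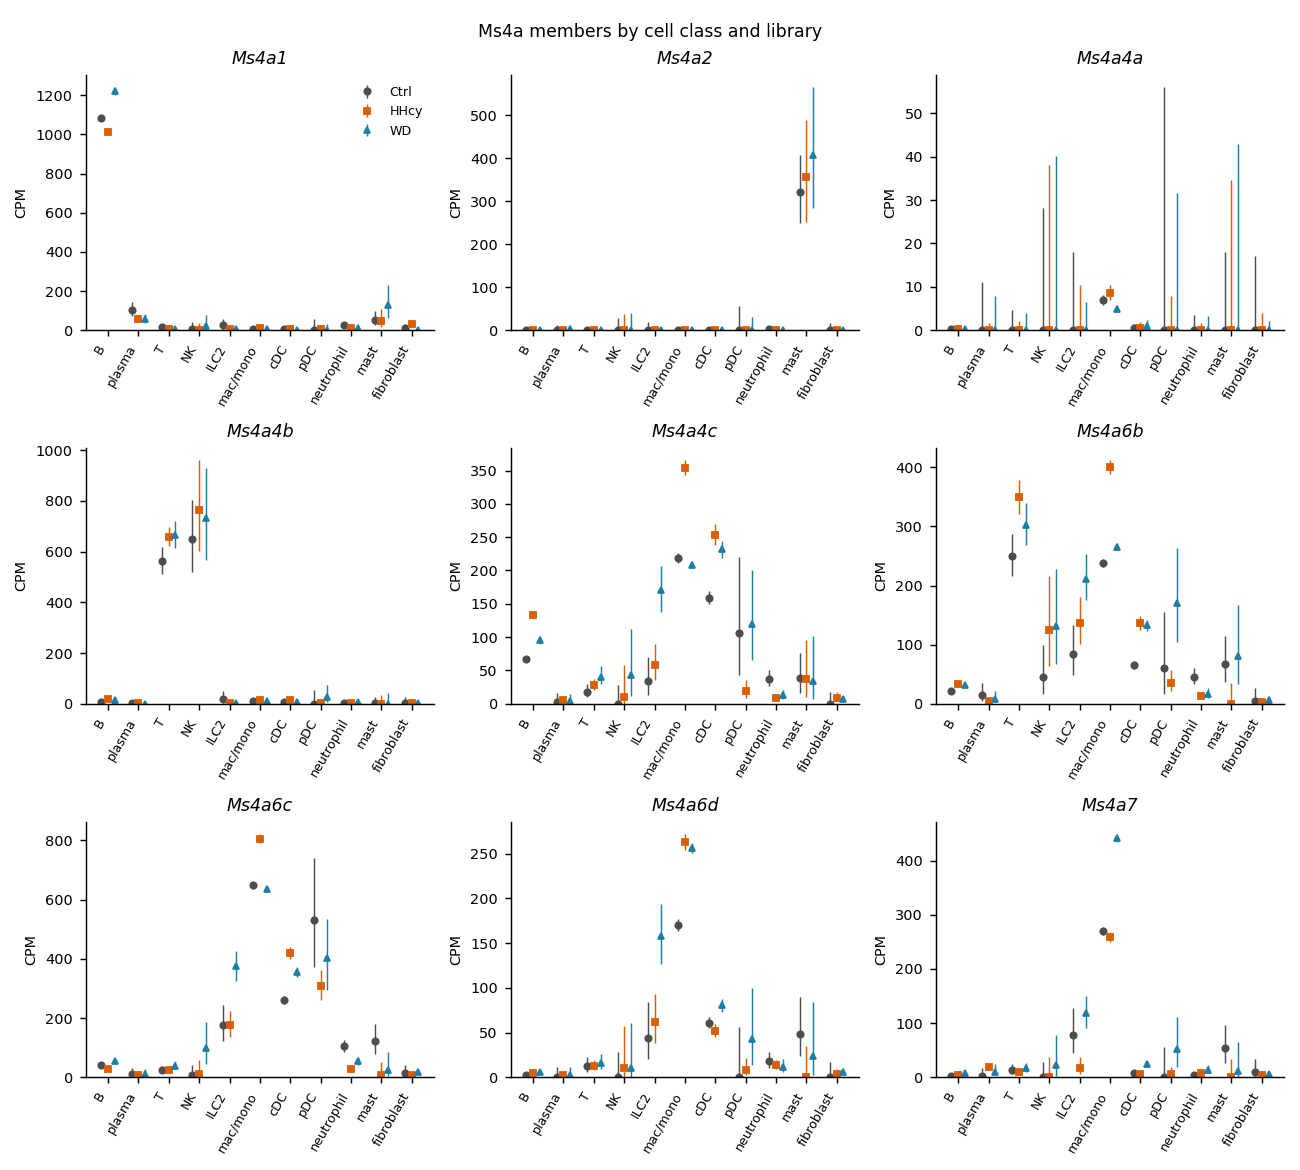
Level of each of the 9 members by cell class in CPM, with each library as a point and bars for exact Poisson 95% intervals, on linear axes. B cells carry Ms4a1, mast cells Ms4a2, T and NK cells Ms4a4b, and macrophages and monocytes Ms4a4a, Ms4a6c, Ms4a6d and Ms4a7, while Ms4a4c and Ms4a6b have overlapping top classes.

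Within single macrophages and monocytes, members were found together more often than the product of their shares in 7 of 10 pairs in every library, with each cell thinned to 1000 UMIs. The interval lay above the product in every library only for Ms4a4c with Ms4a6b, Ms4a4c with Ms4a6c and Ms4a6b with Ms4a6c. For the pairs with Ms4a6d it covered the product in Ctrl. It also did so in the library labelled HHcy for Ms4a6d with Ms4a6b, Ms4a6c or Ms4a7, and in WD for Ms4a6d with Ms4a7. Subsets mix in these shares, so they describe the class and not a link between genes. Ms4a4c and Ms4a7 stood out in the other direction: they were found together in 14, 11 and 50 of 1920, 1189 and 2691 cells, which was 0.279, 0.239 and 0.469 times the product of their shares. Ms4a6b with Ms4a7 gave 0.724, 0.941 and 0.84 and Ms4a6c with Ms4a7 gave 0.734, 0.857 and 0.851, all below 1. At 2000 UMIs per cell Ms4a6b with Ms4a7 gave 0.902, 1.06 and 1.03, so its direction turned in the library labelled HHcy and WD, and at 1000 UMIs the interval of the library labelled HHcy covered the product. Ms4a6c with Ms4a7 at 2000 UMIs gave 0.693, 0.854 and 0.895, and Ms4a4c with Ms4a7 0.391, 0.384 and 0.654. The low value of Ms4a4c with Ms4a7 restates at the level of cells what the subsets show.

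**Figure D4:**
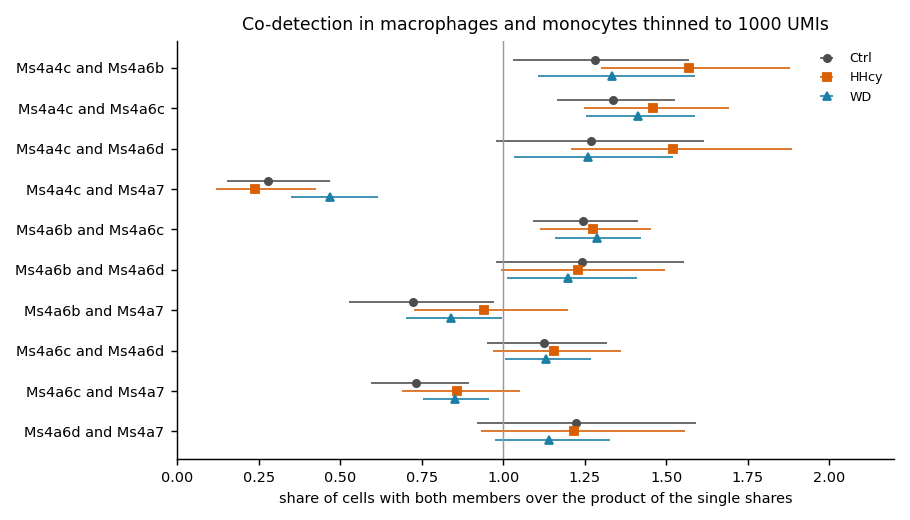
Observed share of macrophages and monocytes with both members of a pair, divided by the product of the single shares, at 1000 UMIs per cell, for 10 pairs and 3 libraries. The pair of Ms4a4c and Ms4a7 lies lowest in every library, at 0.28, 0.24 and 0.47.

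Family members of different lineages were also found together in the doublets. Ms4a1 and Ms4a7, which belong to different lineages, were found together with at least 2 UMIs each in 22.2, 34.7 and 39.3% of the barcodes left out as doublets and in 0.0933, 0.173 and 0.207% of those kept. Neither gene was used to call doublets, but the call takes barcodes with markers of 2 or more lineages. The difference therefore follows from the call and is no separate check of it. The doublets held 18.2, 31.1 and 38.2% of all Ms4a1 UMIs. For Ms4a4b the shares were 41.2, 59.2 and 56.5%, for Ms4a4c 20, 42.7 and 32.8% and for Ms4a6b 23.1, 55.1 and 37.9%. They were 21.1, 54.3 and 35.8% for Ms4a6c, 22.3, 56.2 and 34.2% for Ms4a6d and 24, 54.6 and 35.8% for Ms4a7. How doublets are treated therefore bears on the comparisons that follow.

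The libraries were compared within each class by the ratio of CPM, with UMIs summed over the cells of the class. A gene was taken as past the fold threshold where the ratio was beyond 1.5-fold, its 95% interval excluded 1, and both libraries together held at least 50 UMIs. Both comparisons use the same control library and are therefore not independent. The classes also differ in their mix of subsets: the B1-cell-like subset led by S100a6 was the most frequent B-cell subset in Ctrl and WD, and the follicular-like subset led by Satb1 in the library labelled HHcy. The most frequent macrophage and monocyte subset was non-classical monocytes in Ctrl, resident-like macrophages in the library labelled HHcy and the Cd72-led macrophages in WD.

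In macrophages and monocytes, Ms4a4c, Ms4a6b and Ms4a6d were higher in the library labelled HHcy than in Ctrl, and Ms4a6d and Ms4a7 were higher in WD than in Ctrl. For the library labelled HHcy, 3 of 8 members tested were past the threshold, where 5.75% of all 10982 genes tested were. Ms4a4c stood at 219, 354 and 209 CPM, a log2 ratio of 0.70 (95% interval 0.63 to 0.76), and Ms4a6b at 238, 400.3 and 265 CPM, a log2 ratio of 0.75 (95% interval 0.69 to 0.81). For both genes the library labelled HHcy stood alone and the 2 other libraries lay close together. Ms4a6d was low in Ctrl alone, at 170.2, 263 and 257 CPM, with log2 ratios of 0.63 (95% interval 0.55 to 0.70) for the library labelled HHcy and 0.59 (95% interval 0.53 to 0.66) for WD, or 1.54-fold and 1.51-fold, just past the threshold. For WD, 2 of 8 members were past it, beside 6.76% of 11721 genes. Ms4a7 was high in WD alone, at 269.8, 258 and 442 CPM and a log2 ratio of 0.71 (95% interval 0.66 to 0.76). The medians over the tested members were 0.35 and -0.05 on the log2 scale, beside -0.04 and -0.02 over all genes tested. Of 11 alternative settings, Ms4a6b stayed past the threshold in 11, Ms4a4c in 8 (lowest log2 ratio 0.46) and Ms4a6d in 10 and, in WD, 7. The B-cell list in this class summed to 366, 474 and 352 CPM, with 5 of 14 genes past the threshold upwards in the library labelled HHcy and 6 of 13 downwards in WD. The neutrophil list summed to 513, 660.3 and 599.7 CPM, with 5 of 10 genes upwards in the library labelled HHcy, and the fibroblast list to 20.8, 22.7 and 39.9 CPM, with 5 of 7 upwards in WD. Their part was not tested.

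The Ms4a7 value in WD moved with the mix of macrophage subsets. The Cd72-led macrophages, where Ms4a7 stands high, were 10.8%, 7.61% and 25.1% of macrophages and monocytes. When WD and Ctrl were given the same mix of subsets, the log2 ratio of Ms4a7 was 0.21, below the threshold. Within subsets the WD log2 ratio was 0.09 in the Cd72-led macrophages, 0.18 in the Spp1-led and -0.25 in the Mmp13-led macrophages, none of them past the threshold. It was 1.22 (95% interval 0.66 to 1.81) in classical and 1.52 (95% interval 1.01 to 2.05) in non-classical monocytes, where levels were low and both values were past the threshold, beside 10.9% and 5.51% of all genes. In the Prg4-led macrophages Ms4a7 went from 3 UMIs in Ctrl to 115 in WD, a log2 ratio of 4.76 (95% interval 3.18 to 7.06), beside 9.17% of all genes past the threshold. Of 8 macrophage and monocyte subsets tested, Ms4a7 was higher in WD in 7 and past the threshold in these 3. Low levels of Ms4a7 were also higher in WD outside this class. The log2 ratio was 1.35 in B cells and 1.60 in conventional dendritic cells, beside 4.2% and 7.11% of all genes past the threshold. Over all barcodes Ms4a7 stood at 104, 77.3 and 257 CPM. The part of free RNA in the low values was not tested.

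Ms4a6d was also higher within the subsets. With the same mix of subsets as Ctrl, its log2 ratio was 0.65 for the library labelled HHcy. For WD it was 0.48, below the threshold. It was higher than in Ctrl in 8 of 8 macrophage and monocyte subsets tested in the library labelled HHcy, with log2 ratios from 0.20 to 1.11, and in 8 of 8 in WD, from 0.26 to 0.75. In the library labelled HHcy it was past the threshold in classical monocytes, the Hspa1a-led cells and the Prg4-led, Mmp13-led and Spp1-led macrophages, beside 10.8%, 7.54%, 11.2%, 8.52% and 11.7% of all genes. In WD it was past the threshold in classical and non-classical monocytes, the Hspa1a-led cells, resident-like macrophages and the Prg4-led macrophages, beside 10.9%, 5.51%, 6.36%, 5.74% and 9.17% of all genes. The subsets share a library and are not replicates of it. Ms4a6b was also higher in 8 of 8 subsets in both comparisons, with log2 ratios between 0.03 and 1.45 for the library labelled HHcy and from 0.02 to 0.81 in WD. It was past the threshold in 4 of 8 in the library labelled HHcy (classical monocytes and the Hspa1a-led, Cd72-led and Spp1-led cells, with 6.47% of all genes in the Cd72-led cells) and in 1 of 8 in WD, the Cd72-led macrophages.

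In the library labelled HHcy, the Spp1-led macrophages (165, 79 and 302 cells) carried more members past the threshold than any other macrophage or monocyte subset, 4 of 5 tested, beside 11.7% of all genes. Ms4a4c stood at 199.9, 408 and 209.8 CPM there, Ms4a6b at 166, 452 and 175 CPM, Ms4a6c at 560.2, 1042 and 517 CPM and Ms4a6d at 299, 485 and 364 CPM. The library labelled HHcy was highest for each of the 4, with log2 ratios of 1.03, 1.45, 0.90 and 0.70. Ms4a7 did not follow, at 253, 269.5 and 287 CPM and a log2 ratio of 0.09 (95% interval -0.12 to 0.31). In WD, 0 of 6 members tested were past the threshold in these cells, beside 8.95% of all genes. The summed B-cell marker list in them was 233, 376 and 151 CPM, highest in the library labelled HHcy, and its part was not tested.

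In WD, the Cd72-led macrophages (211, 92 and 680 cells) had 3 of 7 members tested past the threshold, beside 6.29% of all genes. These were Ms4a4c at 59.9, 73.8 and 110.1 CPM (log2 ratio 0.88, 95% interval 0.62 to 1.14), Ms4a6b at 104, 156 and 182 CPM (0.81, 95% interval 0.62 to 1.01) and Ms4a6c at 263, 305 and 415 CPM (0.65, 95% interval 0.53 to 0.78). WD was highest for all 3, and the highest macrophage or monocyte subset by median was classical monocytes for each of them. In the Cd72-led macrophages the fibroblast list summed to 17.1, 27.4 and 39 CPM, with 3 of 3 genes tested past the threshold upwards in WD, and the neutrophil list to 223, 439.6 and 276 CPM, with 3 of 6. Their part was not tested. Ms4a6c was also lower in the library labelled HHcy than in Ctrl in the Mmp13-led macrophages, at 253, 108 and 372 CPM and a log2 ratio of -1.23 (95% interval -1.73 to -0.76).

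**Figure D5:**
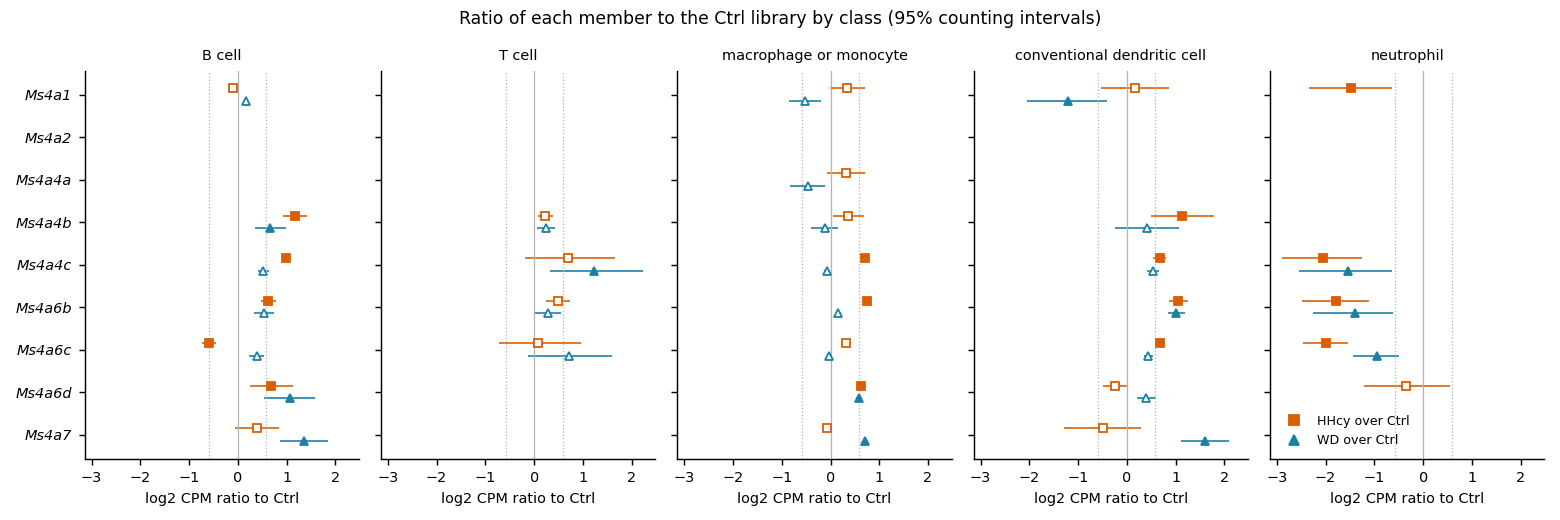
Log2 ratio of each tested member in 5 cell classes, for the library labelled HHcy and for WD, each against the shared Ctrl library. Points are ratios of CPM, bars are exact 95% intervals for counting error, filled points are past the threshold and dotted lines mark 1.5-fold. Ratios of Ms4a4c and Ms4a6b are above 0 in B cells, T cells and dendritic cells and below 0 in neutrophils.

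Conventional dendritic cells also held more of several members in both treated libraries. In the library labelled HHcy, 4 of 7 members tested were past the threshold, all higher, beside 8.7% of all genes, and the median over members was 0.67 on the log2 scale beside 0.07 over all genes. Ms4a6b stood at 65.6, 136 and 132 CPM, low in Ctrl alone, with log2 ratios of 1.05 (95% interval 0.86 to 1.25) and, in WD, 1.01 (95% interval 0.84 to 1.19). Ms4a4c stood at 159, 254 and 232 CPM (log2 ratio 0.67, 95% interval 0.54 to 0.80 for the library labelled HHcy) and Ms4a6c at 262, 419 and 356 CPM (0.68, 95% interval 0.58 to 0.78). Ms4a4b, at a low 6.2, 13.7 and 8.25 CPM, was the other member past the threshold. In WD, 3 of 7 were past it, beside 7.11% of all genes: Ms4a6b, Ms4a7 at 8.0, 5.74 and 24.2 CPM, and Ms4a1, which was lower at 7.51, 8.47 and 3.26 CPM. Ms4a4c in WD lay just outside at 1.46-fold. The macrophage list in these cells summed to 1649, 1788 and 2495 CPM and 9 of its 14 genes were past the threshold upwards in WD, against 1 upwards and 1 downwards in the library labelled HHcy. The part of those genes in the WD values was not tested.

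Cd209a dendritic cells, the subset that carries these members, were 173, 115 and 154 cells. Ms4a4c stood at 341, 474 and 400.0 CPM there, Ms4a6b at 130.2, 259 and 228 CPM and Ms4a6c at 487, 753 and 569 CPM. Of 5 members tested for the library labelled HHcy, 3 were past the threshold, and of 6 for WD, 2, where 11.8% and 7.55% of all genes were. The B-cell list in these cells summed to 232, 378 and 202 CPM, with 2 of 3 genes tested upwards in the library labelled HHcy, and the neutrophil list to 514, 502 and 546 CPM, with 2 of 4. The macrophage list summed to 1902, 1829 and 2581 CPM, with 5 of 14 upwards in WD, and the part of these lists was not tested. In the cycling dendritic cells (42, 28 and 45 cells) all 5 members tested in WD were higher and past the threshold, beside 12.3% of all genes. The macrophage list there summed to 2664, 2636 and 4796 CPM, with 8 of 14 genes higher in WD, and its part was not tested.

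In B cells the members past the threshold were those at low levels in B cells, and Ms4a1 was not among them. Ms4a1 had log2 ratios of -0.10 (95% interval -0.13 to -0.08) and 0.17 (95% interval 0.14 to 0.20). For the library labelled HHcy, 5 of 7 members tested were past the threshold, beside 10.3% of all genes. Ms4a4c stood at 66.4, 133 and 95.6 CPM (log2 ratio 1.00, 95% interval 0.91 to 1.09), Ms4a4b at 8.77, 19.8 and 13.9 CPM (1.17, 95% interval 0.93 to 1.42) and Ms4a6b at 21.5, 33.3 and 31.2 CPM (0.63, 95% interval 0.47 to 0.79), all highest in the library labelled HHcy. Ms4a6d was also higher, at 3.04, 4.86 and 6.35 CPM, and Ms4a6c was lower, at 42, 27.9 and 55 CPM (-0.59, 95% interval -0.73 to -0.45). For WD, 3 of 7 were past the threshold, Ms4a4b, Ms4a6d and Ms4a7, all higher, beside 4.2% of all genes, and Ms4a6b lay just outside at 1.45-fold.

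The B-cell values moved with the mix of subsets. The Satb1-led follicular-like subset was 19.9%, 44.1% and 21.6% of B cells and the B1-cell-like subset led by S100a6 45.9%, 16.1% and 33.9%. With the same mix in both libraries, the log2 ratio of Ms4a4c for the library labelled HHcy was 0.24 and that of Ms4a4b 0.35. Within the follicular-like subsets the Ms4a4c ratio was 0.14 (Satb1-led) and 0.04 (Pxdc1-led). It was 0.62 (95% interval 0.39 to 0.85) in the B1-cell-like subset, past the threshold, where 4.27% of all genes were. Ms4a6c was past the threshold downwards in none of 6 B-cell subsets tested. Its log2 ratio was -0.20, 95% interval -0.40 to -0.01, in the B1-cell-like subset led by S100a6, and 1.05, 95% interval 0.21 to 2.01, in the Pxdc1-led subset, the latter past the threshold upwards beside 6.68% of all genes. For all B cells Ms4a6c was past the threshold in 5 of 11 alternative settings, with values from -0.98 to -0.06. The macrophage list summed to 558, 579 and 724 CPM in B cells and the neutrophil list to 90.1, 237 and 143 CPM, and their part was not tested.

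In T cells, 0 of 4 members tested were past the threshold for the library labelled HHcy, beside 9.81% of all genes. Ms4a4b, at 563, 659 and 665 CPM, had log2 ratios of 0.23 (95% interval 0.07 to 0.39) and 0.24 (95% interval 0.06 to 0.42). In WD 1 of 4 was past it, Ms4a4c, at 17.4, 28 and 40.9 CPM from 14, 47 and 39 UMIs, beside 8.3% of all genes. The T-cell class held B-cell markers at 2498, 6353 and 439 CPM and macrophage markers at 936, 938 and 1189 CPM, and their part was not tested.

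In neutrophils (191, 403 and 254 cells) every member past the threshold was lower than in Ctrl. For the library labelled HHcy, 4 of 5 members tested were past the threshold, all lower, but 27.8% of all genes tested were past it too, and the median over all genes was -0.25 on the log2 scale. Ms4a6c stood at 105, 26.3 and 54.1 CPM, Ms4a6b at 45.3, 13.2 and 17.1 CPM and Ms4a4c at 36.8, 8.92 and 12.6 CPM, each highest in Ctrl, with log2 ratios of -1.99 (95% interval -2.47 to -1.53), -1.78 (95% interval -2.48 to -1.10) and -2.05 (95% interval -2.89 to -1.25). Ms4a1 was lower too, at 27.4, 9.77 and 9.02 CPM. These values rest on few cells. In Ctrl, 39 Ms4a4c UMIs came from 13 cells, 48 Ms4a6b UMIs from 20 and 111 Ms4a6c UMIs from 27, and the 10 cells with the most UMIs held 92.3%, 79.2% and 74.8% of them. Cells with a UMI were 6.81, 4.22 and 4.72% for Ms4a4c, 10.5, 6.7 and 5.51% for Ms4a6b and 14.1, 7.69 and 13.4% for Ms4a6c. For WD all 3 members tested were lower and past the threshold, beside 14.3% of all genes. Every one of these values turned positive when doublets were kept, so the direction rests on that step. The macrophage list in neutrophils summed to 8618, 10991 and 10271 CPM, and its part was not tested.

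Genes with the pattern most like each member were found over 21 class-by-library sums from 7 classes, among 12183 genes, by the correlation of log2(CPM + 1). The sums share libraries, so these values are a description. Among the genes most like Ms4a1 were Cd79b (r = 0.97) and Vpreb3 (0.97), genes of the B-cell receptor complex and its precursor. Ms4a4b was most like Cd5 (0.96), Ctsw (0.94) and Gm2682 (0.94). NK cells, the class highest in Ms4a4b by median, were too few to be among the 7 classes. Cd5 had no UMI in NK cells in any library. Ms4a7 was most like the complement genes C1qb, C1qa and C1qc (0.95 each). Ms4a6c was most like Ccl9 (0.95), Cd68 (0.94) and Aif1 (0.94), and Ms4a6d like Ccl9 (0.97), Sap30 (0.96) and Clec4a1 (0.96). Ms4a4c was most like Cd86 (0.94), which encodes a co-stimulatory ligand of antigen-presenting cells, then Jarid2 (0.92) and Pld4 (0.92). Ms4a6b was most like AI504432 (0.93), Spn (0.91) and Pycard (0.91), and Ms4a4a like Gm48832 (0.97), Vmn2r26 (0.94) and Marco (0.93). Ms4a2 was under the 200 UMIs needed. Among members, Ms4a6c and Ms4a6d were the most alike (0.92), and Ms4a1 and Ms4a6d the least (-0.44).

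Of the 13 partner genes listed beside the family, 12 were measured. Besides those already given, Cd22, an inhibitory B-cell lectin gene, stood at 192, 225 and 196 CPM in B cells, and Cd40, a co-stimulatory receptor gene, at 42, 48.4 and 49.4 CPM. Like Ms4a1, neither differed by 1.5-fold from Ctrl in B cells. The tetraspanin gene Cd53 stood at 549, 641 and 701 CPM and the inhibitory lectin gene Clec4a2 at 133, 155 and 123 CPM in neutrophils. Unlike the members past the threshold there, neither was lower by 1.5-fold in that class.

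Of 10 other Ms4a genes in the matrices, 2 had no UMI and 3 held 50 or more UMIs in a class. Ms4a8a stood at 44.9, 71.4 and 34.9 CPM in macrophages and monocytes and at 247, 268 and 229 CPM in the Prg4-led macrophages, the subset in which Ms4a6b and Ms4a6d were lowest. Ms4a14 stood at 18.8, 13.8 and 19.3 CPM in macrophages and monocytes and was highest, at 85.7, 112 and 75.1 CPM, in the Mmp13-led macrophages, a subset also high in Ms4a7. Ms4a4d was held by fibroblast-like cells, at 116, 53.1 and 102 CPM. The related genes Tmem176a and Tmem176b stood at 1059, 1408 and 979 and 1009, 1120.2 and 867 CPM in γδ or IL-17 T-cell-like cells, the T cells with the least Ms4a4b. They stood at 1030.2, 1251 and 1007 and 1053, 1179.8 and 901 CPM in mature dendritic cells.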

How the data were processed

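The 3 libraries are deposited as gene-by-barcode matrices of raw UMI counts per gene, made by the authors with Cell Ranger, version 4.0.0 per the file headers and 2.2.0 per the submitters' processing notes, on mm10 per those notes. Whether a strand or multi-mapping setting was used is not given in the sources used here. The counts were used as deposited, and 0 columns belonged to other samples. Barcodes with at least 200 detected genes and at most 10% mitochondrial UMIs were kept. Those with at least 7 B-cell, 7 T- or NK-cell, 9 myeloid, 8 neutrophil or 5 stromal markers, for 2 or more lineages, were left out as doublets. No doublet caller was run.

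Cells of the 3 libraries were clustered together with scanpy 1.11.5 (2000 variable genes, 30 principal components, 20 neighbours, Leiden resolution 1.0, 0.5 for subsets, seed 1, igraph 0.11.9). No Ms4a gene was used as a variable gene or marker. A cluster was named only with at least 3 detected markers and when its 10 leading genes did not go against the name. Clusters led by markers of another class stayed out of the classes compared. Lymphoid, dendritic, unnamed and cycling clusters were clustered again, which was decided with the data seen. Unnamed cells were 3.69%, 2.26% and 4.41% of the libraries. Clusters led by another class's markers and so kept out of their best-matching class held 11, 14 and 5 cells for B cells, 39, 28 and 18 for conventional dendritic cells, 45, 23 and 90 for macrophages and monocytes, and 12, 3 and 12 for neutrophils.

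For each library and class, the UMIs of a gene in all cells were added up and divided by all UMIs of those cells (CPM). Intervals are 95%: exact Poisson for CPM, Clopper-Pearson for shares, exact conditional binomial for ratios. They cover counting error only, and no p-value was computed, since each group had 1 library. Classes or subsets with at least 10 cells in each library were ordered by their median over libraries, and subsets with at least 20 were compared between libraries. All 9 members were named, as were other family genes with 50 or more UMIs in a class, a list of partner genes, and the 3 genes most like each member (at least 200 UMIs, pseudocount 1 CPM), except a gene that is not reported here. The members and lists were chosen with earlier results of these data known. Computation used Python 3.11.15, numpy 2.4.6, scipy 1.17.1, pandas 2.3.3 and Biopython 1.88, with edgeR 4.0.16 for TMM scaling factors only. The threshold rule was tested on simulated macrophage and monocyte sums that held counting error only, and thinning was checked on real cells. The other steps were not tested on simulated data. Alternatives were other scaling, doublets kept, other filters, other ways to name or cluster cells, thinned cells, an equal mix of subsets and no UMI minimum.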

Additional observations from a re-analysis of the deposited data

Results flagged for a closer look

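The same contrast with Ctrl gave ratios of opposite sign in different classes for 3 members, each past the 1.5-fold threshold in both classes. With 1 library per group these differences were not tested. For Ms4a4c in the library labelled HHcy, the log2 ratio exceeded that of neutrophils by 3.04 in B cells, by 2.74 in macrophages and monocytes and by 2.72 in conventional dendritic cells. For Ms4a6b in that library the gap to neutrophils was 2.41 in B cells, 2.53 in macrophages and monocytes and 2.84 in conventional dendritic cells. For Ms4a6c in that library the log2 ratio in conventional dendritic cells exceeded that of neutrophils by 2.67 and that of B cells by 1.27. The B-cell value of Ms4a6c was past the threshold in 5 of 11 alternative settings and reached -0.06 with doublets kept, and 0 of 6 B-cell subsets tested were past it downwards. In WD, Ms4a4c differed by 2.78 between T cells and neutrophils, and Ms4a6b by 2.42 between conventional dendritic cells and neutrophils. The neutrophil values of these members turned positive when doublets were kept.

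By neutrophil cluster, Ms4a6c stood at 158, 31.1 and 48.6 CPM in the cells led by G0s2 and Retnlg and at 52.4, 11.9 and 67.3 CPM in those led by Camp and Ngp. Ms4a4c stood at 45.7, 10.2 and 8.95 CPM in the G0s2-led cells, and Ms4a6b at 61, 14.7 and 15.3 CPM. Ctrl was highest for all 3 genes in the G0s2-led cells, but on few cells: 24 Ms4a4c UMIs in 7 of 111 cells, 32 Ms4a6b UMIs in 15 and 83 Ms4a6c UMIs in 20.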

How the results depend on the processing

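No paired analysis was possible because each group had 1 library, and leaving out a library would leave no comparison. The class in which each member stood highest was kept for 9 of 9 members with doublets kept and at clustering resolution 2, 8 with the looser mitochondrial limit, and 6 with cells named singly by their own markers, where the highest class moved to plasmacytoid dendritic cells for Ms4a1, neutrophils for Ms4a2 and T cells for Ms4a4b. The subset was kept for 6, 6, 7 and 5 of 9 in the same settings, and Ms4a7 moved from the Mmp13-led to the Cd72-led macrophages in each of the 4. Among members in their highest class, 2 were past the threshold in the library labelled HHcy (Ms4a4c in dendritic cells and Ms4a6d in macrophages and monocytes). That count was 0 with doublets kept, 4 with cells named singly by their own markers and 1 with cells thinned to 1000 UMIs. In the main setting 8.7% of all genes in dendritic cells and 5.75% in macrophages and monocytes were past it for that library. The share in macrophages and monocytes was 6.76% for WD. For the alternatives the share of all genes past the threshold is not given here. These counts and those for WD are therefore no result about the members. In WD, 2 were past it (Ms4a6d and Ms4a7 in macrophages and monocytes), and the count was 0 with cells named singly by their own markers, 0 with an equal mix of subsets, 1 with thinned cells and 1 when clusters led by another class's markers were counted in their best class, an alternative chosen after seeing the data. With doublets kept, the neutrophil log2 ratios turned from negative to 0.66 (Ms4a1), 0.44 (Ms4a4c), 0.66 (Ms4a6b) and 0.26 (Ms4a6c) in the library labelled HHcy and to 0.62 (Ms4a4c), 0.91 (Ms4a6b) and 0.72 (Ms4a6c) in WD. Ms4a6b in WD was 0.078 with cells named singly by their own markers. The cause was not tested. Of the other values, 495 kept their direction or stayed within their spread and 104 moved under the other alternatives, and 63 and 1 under the alternative just named as chosen after seeing the data. Ms4a6d in macrophages and monocytes stayed past the threshold in 10 of 11 alternatives for the library labelled HHcy and 7 of 11 for WD, and Ms4a7 in WD in 9. Ms4a4a, and all members in mast and NK cells, were limited by UMI and cell numbers.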

Other observations

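Some values outside the comparisons were chosen after they were seen. Ms4a3, a gene of granulocyte precursors, held 65, 85 and 158 UMIs in a small unnamed cluster led by Mpo, Prtn3, Elane and Ctsg, granule genes of early neutrophil precursors (12, 3 and 12 cells). That was 255, 1066 and 447 CPM, and Ms4a6c stood at 372, 62.7 and 277 CPM in the same cells. In the neutrophil cluster led by Camp and Ngp, genes of less mature neutrophils, Ms4a3 stood at 20.6, 42.7 and 36.7 CPM, and the cluster led by G0s2 held 1, 0 and 0 UMIs, where 0 UMIs allow up to 1.7 and 3.83 CPM.

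The transcript BE692007 lies antisense to Ms4a6c and overlaps its exons. In B cells it followed the follicular-like cells, with 237, 264 and 236 CPM in the Pxdc1-led, 197, 225 and 163 CPM in the Satb1-led and 60.1, 80.4 and 56.1 CPM in the B1-cell-like subset, and 6.9, 9.64 and 4.44 CPM in classical monocytes. Ms4a6c, on the other strand, was at its highest in classical monocytes. The neighbouring gene Gm8369 stood at 418, 564 and 512 CPM in the Satb1-led, 371, 458 and 422 CPM in the Pxdc1-led and 119, 158 and 166 CPM in the B1-cell-like subset, and at 7.31, 12 and 4.8 CPM in classical monocytes. Whether reads of BE692007 and Ms4a6c were kept apart by strand where their exons overlap was not tested, since no strand setting is stated.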
